A study of Mus musculus with 300 samples.

Results

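Among 300 single spermatogonia from adult mouse testes, 76 carried neither of the receptor transcripts that usually sort these cells into stages. The class was defined by the readout itself, as cells with both Gfra1 and Kit under 1 FPKM (fragments corrected for transcript length and sequencing depth). It was compared, within preparation, with 131 cells that had Gfra1 at 1 FPKM or more and Kit under 1, called Gfra1-only here. A further 50 cells had Kit alone, called Kit-only, and 43 had both genes. The 76 cells came as 26, 22, 13 and 15 from preparations 1, 2, 3 and 4, and the 131 as 25, 42, 35 and 29. All cells came from untreated adult mice with an ID4-EGFP reporter and were sorted as CD9-bright and EGFP-positive. Each preparation pooled the testes of 2 or more mice, so n = 4 preparations throughout and cells were not counted as replicates. EGFP brightness had been imaged on each captured cell and binned into quartiles, with the brightest cells in Q1 and the dimmest in Q4. The mice's exact age and the construction of the reporter are not given in the sources used here.

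GFRA1 is the co-receptor through which the Sertoli cell factor GDNF acts on the receptor kinase RET, and it marks the small fraction of undifferentiated spermatogonia that renew themselves. KIT, the receptor for stem cell factor, appears when spermatogonia commit to differentiation under retinoic acid. Between these states lie progenitors, undifferentiated cells that have lost GFRA1 and gained genes such as Neurog3, Sox3, Upp1, Rarg and Nanos3. The comparison asks which genes of these stages differ in the cells that carry neither receptor transcript.

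As a description of the rule, with no test, 50 of the 76 cells had both genes listed at 0. Gfra1 stood above 0 in 19 cells and Kit in 11. The highest values inside the class were 0.958, 0.788 and 0.720 FPKM for Gfra1, while the lowest in Gfra1-only cells were 1.70, 1.72 and 1.77. Median Gfra1 in Gfra1-only cells was 43.8 FPKM, the highest 543, and 10 of those cells lay between 1 and 5 FPKM. In the Kit-only cells median Kit was 24.6 FPKM. Gfra1 (chr19:58235604-58455909) shares exon bases with the predicted gene Gm16277 on the opposite strand, and the library kit does not mark strand.

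The cells were germ cells by their transcripts. Ddx4 and Dazl, RNA-regulating genes of the germ line, were both at 1 FPKM or more in 75 of 76 cells, and Uchl1, a ubiquitin hydrolase abundant in spermatogonia, in every one. Sall4, a zinc finger factor of undifferentiated spermatogonia, was detected in 97.4% of them. Zbtb16, another marker of spermatogonia, was detected in 84.2% of the class and 96.2% of Gfra1-only cells. In preparation 1 Zbtb16 was detected in 57.7% of the class, against 92.3 to 100% in the other preparations. Every cell of the class had at least 1 of Upp1, Nanos3, Sox3, Neurog3, Ret, Etv5 and Stra8. The same held for every Gfra1-only cell, every Kit-only cell and every cell with both genes. Few cells matched a marker list of other testis cells. In the class 1 cell matched the peritubular myoid list and 1 the macrophage and leukocyte list, against 0 and 3 Gfra1-only cells. A match needs at least 3 and at least 50% of the listed markers at 5 FPKM. No cell of the class matched the Sertoli, Leydig, endothelial, erythroid, pachytene or spermatid list. Its summed Sertoli markers had a median of 0 FPKM and reached 286, its summed myoid markers had a median of 0 and reached 5730, and its summed macrophage markers had a median of 0 and reached 941. Markers of later germ cells were not at 0. The summed pachytene markers of the class had a median of 54.8 FPKM and reached 377. Its summed spermatid markers had a median of 29.4 and reached 664. In Gfra1-only cells these medians were 61.6 and 49.4.

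Cells with neither gene were more frequent among dim cells. From the brightest to the dimmest quartile the class numbered 10, 15, 26 and 25 cells, whereas the Gfra1-only cells numbered 52, 44, 22 and 13. Kit-only cells numbered 4, 10, 10 and 26, so the tilt towards dim cells was not particular to the class. The class made up 12.9 ± 12% of Q1 cells, 20.2 ± 20.0% of Q2, 36.6 ± 12.9% of Q3 and 35.6 ± 21.1% of Q4 (SD, n = 4). Brightness was not part of the rule, and the share grew by 8.46 percentage points per quartile towards dim (SD 8.4, n = 4, two-sided exact permutation p = 0.0353). This test shuffles the quartile labels within each preparation, so it does not measure the spread between preparations. Preparations 1, 2 and 3 rose by 4.57, 15.1 and 15.7 points per quartile and preparation 4 fell by 1.53, with 1 cell of the class among its 19 dimmest. The test did not pass without preparation 1, 2 or 3 (9.76, 6.24 and 6.05 points, exact permutation p = 0.0603, 0.189 and 0.173). It also did not pass with cells standardised over tertiles of detected genes (6.95 points, exact permutation p = 0.0647).

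**Figure D1:**
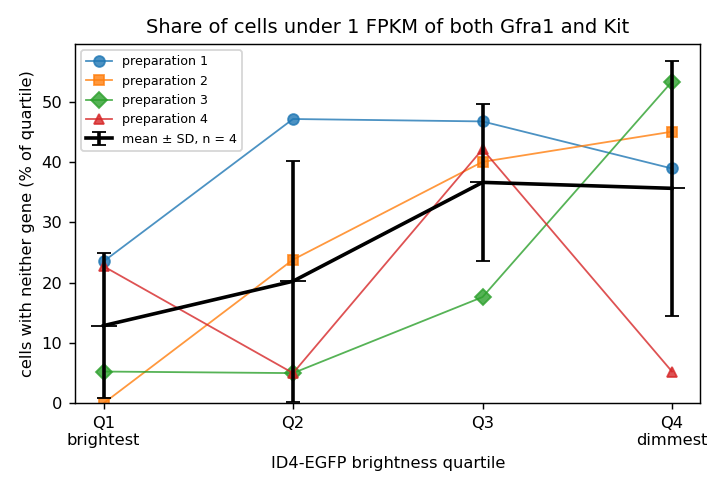
Share of cells under 1 FPKM of both Gfra1 and Kit (percent of the cells of a quartile, y axis) by EGFP quartile (x axis, Q1 brightest) in each of 4 preparations, with the mean and SD over preparations in black. The mean is 12.9% in Q1 and 35.6% in Q4, and preparation 4 drops to 5.26% in Q4.

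Detected genes per cell, the control for a missed transcript, differed from Gfra1-only cells by less than the spread between preparations. Mean genes at 1 FPKM or more per cell were 4175, 5391, 5202 and 6035 in preparations 1 to 4, against 4435, 5783, 5357 and 5872 in Gfra1-only cells. The class was lower in 3 of 4 preparations, and the preparations of both groups overlapped. The difference was -161 genes (5201 ± 771 against 5362 ± 657, SD of the difference 237, n = 4, two-sided exact sign-flip permutation p = 0.375, where 0.125 is the smallest possible). Relative depth, recovered from the steps in low FPKM values, was 1.005 ± 0.106 in the class and 1.045 ± 0.0385 in Gfra1-only cells (SD, n = 4, exact permutation p = 0.375). Housekeeping genes were detected at 92.05% in the class and 91.42% in Gfra1-only cells. Kit-only cells held 5870 ± 907 genes, and the class stood below them in 4 of 4 preparations, with a difference of -669 genes (SD 350, n = 4, exact permutation p = 0.125). That difference lies beside every comparison with Kit-only cells below, and its part in them was not tested beyond the covariate and tertile alternatives given there. Preparation 1 had the fewest detected genes, with a median of 4447 per cell against 5599 to 6289 in the other preparations. It also held the most cells of the class. Its relative depth was not the lowest, at 1.042 in the class against 0.8869, 0.9586 and 1.132 in preparations 2, 3 and 4.

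**Figure D2:**
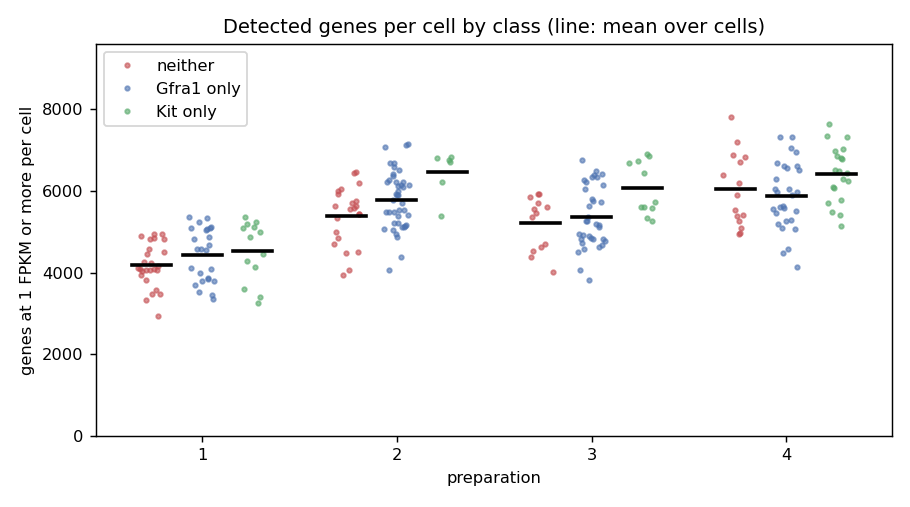
Genes at 1 FPKM or more in each cell (y axis) by preparation (x axis) for cells with neither gene (red), Gfra1 only (blue) and Kit only (green), with a line at each mean over cells. The mean of the neither cells lies below that of Gfra1-only cells in preparations 1, 2 and 3 and above it in preparation 4, while Kit-only cells are highest in every preparation.

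Relative to Gfra1-only cells, the class had more Nanos3 and Upp1 and less of the GDNF and FGF responsive genes Etv5 and Dusp6, while the classical progenitor genes Sox3 and Neurog3 did not pass the test. Across 10409 genes besides Gfra1 and Kit, 63 passed at an adjusted p under 0.05 (limma on preparation means of log2(FPKM + 1), Benjamini-Hochberg), which is 0.605%. Of these, 8 were higher in the class (0.0769%) and 55 lower (0.528%). The median difference over all genes was -0.0901. Centring each mean on its median gene moved that median to 0.0347 and gave 60 calls, 58.3% of them lower against 87.3% without centring. The number of calls rested on few preparations: without preparation 2, 1 gene passed, Etv5, and without preparations 3 and 4, 20 and 30. Unweighted means gave 0 calls, with 502 genes at an unadjusted p under 0.05 against 1278 in the weighted fit. The sign was kept in each alternative in which they were tested for all 63 genes.

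The classes differed in EGFP brightness, and few calls passed once brightness was evened out. With cells averaged within quartiles in the same way in both classes, 1 gene passed, Gbp2, and the differences of the 63 genes shrank to a median of 0.687 times their size, with the sign of all 63 kept. That setting used 15 of the 16 combinations of preparation and quartile and 114 of the 131 Gfra1-only cells, and 4 of the 15 held a single cell of the class. Among the leading genes Etv5 moved from -2.77 to -2.02 (limma adjusted p = 0.0778, within a range of 4.18e-06 to 0.0778 over its 19 alternatives). Nanos3 moved from 2.11 to 1.58 (limma adjusted p = 0.279, range 0.00541 to 0.279) and Upp1 from 2.09 to 1.29 (limma adjusted p = 0.460, range 0.00626 to 0.471). Dusp6 moved from -2.18 to -1.15 (limma adjusted p = 0.460, range 0.00147 to 0.460). Eomes moved from -1.24 to -0.08, Nefm from -1.76 to -0.33 and Spry4 from -1.5 to -0.30.

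**Figure D3:**
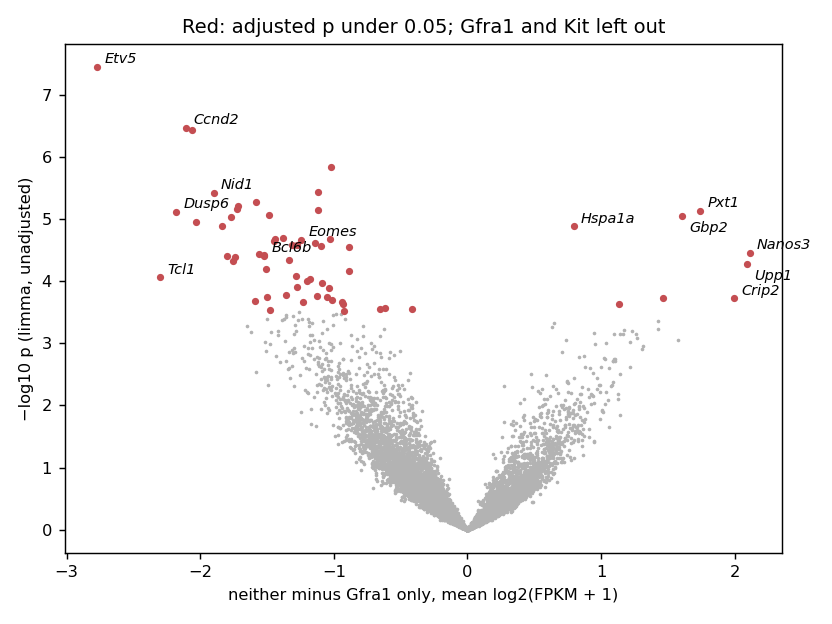
Difference in mean log2(FPKM + 1) between cells with neither gene and Gfra1-only cells (x axis) against the unadjusted limma p as −log10 (y axis) for 10409 genes, with the 63 genes past an adjusted p of 0.05 in red. Lower genes, led by Etv5 at -2.77, outnumber the 8 higher ones on the right, led by Nanos3 at 2.11.

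**Figure D4:**
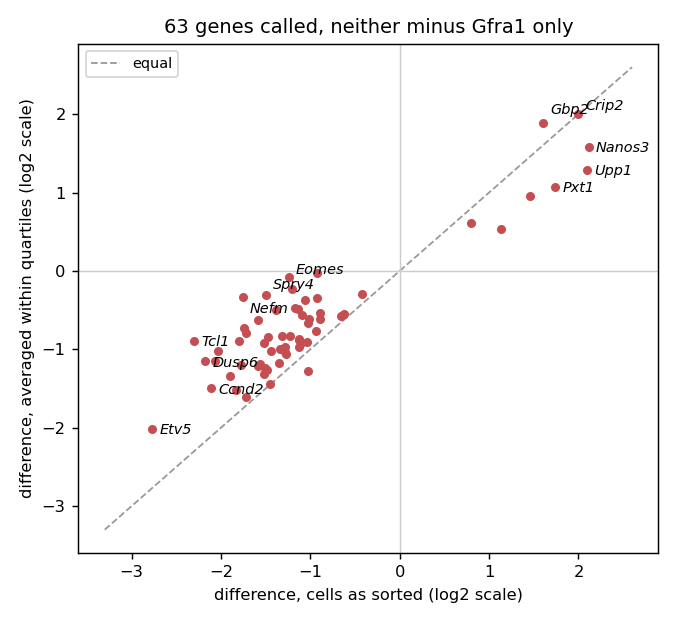
Each of the 63 genes called between cells with neither gene and Gfra1-only cells, with its difference on the log2 scale from the cells as sorted (x axis) and from cells averaged within EGFP quartiles (y axis). The dashed line marks equal values, and the points keep their sign but lie nearer to 0 for Tcl1, Eomes, Nefm and Spry4, while Crip2 and Gbp2 lie at or above it.

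Nanos3, an RNA-binding protein gene of undifferentiated germ cells, had the largest increase (chr8:84173731-84185217, GRCm38). Its mean log2(FPKM + 1) was 5.12, 6.11, 7.62 and 6.53 in the class and 3.55, 2.94, 4.76 and 5.52 in Gfra1-only cells, in preparations 1 to 4. The class was higher in each preparation, although its lowest preparation lay below the highest of the Gfra1-only cells. The difference was 2.11 (SE 0.41, limma adjusted p = 0.0119). Nanos3 also exceeded Kit-only cells, where it stood at 4.21, 3.02, 4.0 and 3.26, by 2.76 (SE 0.52, limma adjusted p = 0.0148), and those preparations did not overlap with the class. Over the 76 cells it was at 0 in 10, with a median of 145 FPKM and a highest value of 678, against a median of 31.4 in Gfra1-only and 12.8 in Kit-only cells. At 1 FPKM it was detected in 86.8% of the class, 64.1% of Gfra1-only and 58% of Kit-only cells. Its call against Gfra1-only cells was lost in 8 of 19 alternatives, among them without preparation 2 or 3. Against Kit-only cells its call was lost in 7 of 19 alternatives, where the difference ran from 0.73 to 3.89 over all 19. Among these 7 were detected genes as a covariate and preparation 2, 3 or 4 left out.

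Upp1, which encodes the uridine salvage enzyme uridine phosphorylase (chr11:9118103-9136170), averaged 4.70, 5.18, 6.64 and 5.53 in the class. In Gfra1-only cells it averaged 2.76, 4.03, 2.79 and 3.58, so the groups did not overlap. The difference was 2.09 (SE 0.42, limma adjusted p = 0.0143). Against Kit-only cells, at 2.52, 6.50, 3.22 and 5.77, it was 0.98 (SE 0.54, limma adjusted p = 0.383), higher in 2 of 4 preparations. Upp1 at 1 FPKM or more was present in 72.4% of the class, 57.3% of Gfra1-only and 72% of Kit-only cells. The call of Upp1 was lost when any single preparation was left out.

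The promoters of the leading higher and lower genes are shown because these genes moved in opposite directions between the classes. An extended ETS motif (CCGGAA, or TTCCGG on the other strand) and a retinoid half-site (AGGTCA, or TGACCT on the other strand) were searched in them. The shorter ETS core GGAA was not searched. The sequences are from RefSeq on GRCm38.p6 and are windows of 300 bases around a start site, most of them upstream, with matches in capitals. Nanos3 is at chr8:84176503-84176802 on the minus strand, Upp1 at chr11:9118257-9118556 on the plus strand for the third of its 3 listed start sites, Etv5 at chr16:22439521-22439820 on the minus strand for the first of 2, and Tcl1 at chr12:105222688-105222987 on the minus strand.
Nanos3: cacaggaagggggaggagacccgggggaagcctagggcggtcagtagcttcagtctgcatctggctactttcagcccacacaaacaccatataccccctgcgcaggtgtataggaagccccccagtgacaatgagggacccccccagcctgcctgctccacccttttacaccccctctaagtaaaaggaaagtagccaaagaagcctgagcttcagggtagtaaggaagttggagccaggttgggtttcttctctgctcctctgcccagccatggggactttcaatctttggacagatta
Upp1: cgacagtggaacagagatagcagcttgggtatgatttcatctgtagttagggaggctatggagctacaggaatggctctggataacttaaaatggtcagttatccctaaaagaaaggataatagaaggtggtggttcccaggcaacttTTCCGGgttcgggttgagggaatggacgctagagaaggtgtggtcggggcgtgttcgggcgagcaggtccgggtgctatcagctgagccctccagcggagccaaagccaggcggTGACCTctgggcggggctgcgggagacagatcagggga
Etv5: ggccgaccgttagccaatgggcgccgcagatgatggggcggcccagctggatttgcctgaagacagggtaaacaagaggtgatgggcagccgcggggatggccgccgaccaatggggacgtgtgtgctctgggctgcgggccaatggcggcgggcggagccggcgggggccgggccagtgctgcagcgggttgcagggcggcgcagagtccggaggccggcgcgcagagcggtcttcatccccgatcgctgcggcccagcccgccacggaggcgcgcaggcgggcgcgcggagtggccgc
Tcl1: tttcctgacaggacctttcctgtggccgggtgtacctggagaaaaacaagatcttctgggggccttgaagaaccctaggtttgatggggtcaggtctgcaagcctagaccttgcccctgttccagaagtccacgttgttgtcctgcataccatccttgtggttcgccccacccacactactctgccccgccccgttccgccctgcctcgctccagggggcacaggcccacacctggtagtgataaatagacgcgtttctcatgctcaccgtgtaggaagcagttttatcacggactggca
Upp1 held 1 match to each motif at this start site, and 0 at its other start sites. Of the 3 windows of Upp1 only the one with matches is printed. Nanos3, Etv5 and Tcl1 held neither motif in these windows. Of 32851 promoters of the same length, 14.9% hold the extended ETS motif and 16.3% the retinoid half-site, so a match is a description of the letters only. These shares are per window, while 3 windows were searched for Upp1.

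The remaining 6 higher genes were not on the progenitor list. Pxt1, which encodes a peroxisomal protein enriched in testis (chr17:28933984-28943840), averaged 5.78, 6.20, 7.27 and 5.63 in the class and 3.56, 5.00, 4.59 and 4.38 in Gfra1-only cells. These groups did not overlap, and the difference was 1.74 (SE 0.30, limma adjusted p = 0.00603). Kit-only cells stood at 3.95 to 4.38, below the class by 1.96 (SE 0.38, limma adjusted p = 0.0177). The call against Gfra1-only cells was lost without preparation 2 or 3. Exon bases of Pxt1 overlap the predicted gene Gm16191 on the other strand.

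Gbp2, an interferon-inducible guanylate-binding protein gene (chr3:142620602-142638008), averaged 1.92, 2.23, 2.28 and 3.30 in the class. In Gfra1-only cells it averaged 0.72, 0.63, 0.77 and 1.20, below every preparation of the class. The difference was 1.61 (SE 0.28, limma adjusted p = 0.00607), and it was 1.57 against Kit-only cells (SE 0.36, limma adjusted p = 0.0337). Few cells carried it: 39.5% of the class had 1 FPKM or more, against 16% and 18% in Gfra1-only and Kit-only cells. This was the 1 gene that passed after averaging within quartiles, at 1.89 (SE 0.32, limma adjusted p = 0.0377, range over alternatives 0.00307 to 0.244), and it did not pass without preparation 2. In the class the preparation means of Gbp2 ran from 2.13 to 7.4 in Q1 and from 0 to 6.23 in Q2. Preparation 3 held 1 cell of the class in each of these quartiles, and preparation 4 held 1 in Q2. How far the call within quartiles rests on such single cells was not tested. Gbp2 belongs to a family with close relatives, among which the authors' counting could split reads.

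Hspa1a, the inducible HSP70 chaperone (chr17:34969190-34972156), averaged 1.1, 1.28, 0.77 and 0.89 in the class and 0.07, 0.34, 0.30 and 0.34 in Gfra1-only cells. No preparations overlapped, and the difference was 0.80 (SE 0.14, limma adjusted p = 0.00716). Kit-only cells were lower too, by 0.82 (SE 0.18, limma adjusted p = 0.0304). It is nearly identical to its neighbour Hspa1b and overlaps Gm20481 on the other strand, so its value is uncertain. Its call against Gfra1-only cells was lost without preparation 1 or 2. Hspa1a reached 1 FPKM in 45 cells, 26 of the class, 11 Gfra1-only, 5 Kit-only and 3 with both genes. Without the cells of the class it would miss the filter of 30 cells. Its call against Gfra1-only cells was kept without a filter on low values. Crip2, a LIM domain protein gene, differed from Gfra1-only cells by 1.99 (SE 0.45, adjusted p = 0.0370) but from Kit-only cells by -1.22 (adjusted p = 0.296). Eppin, a protease inhibitor of the male tract, differed from Gfra1-only cells by 1.46 (limma adjusted p = 0.0370). Psmb10, an immunoproteasome subunit, differed by 1.13 (limma adjusted p = 0.0417). Crip2, Eppin and Psmb10 lost their calls without preparation 2, without preparation 3 and without preparation 4.

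**Figure D5:**
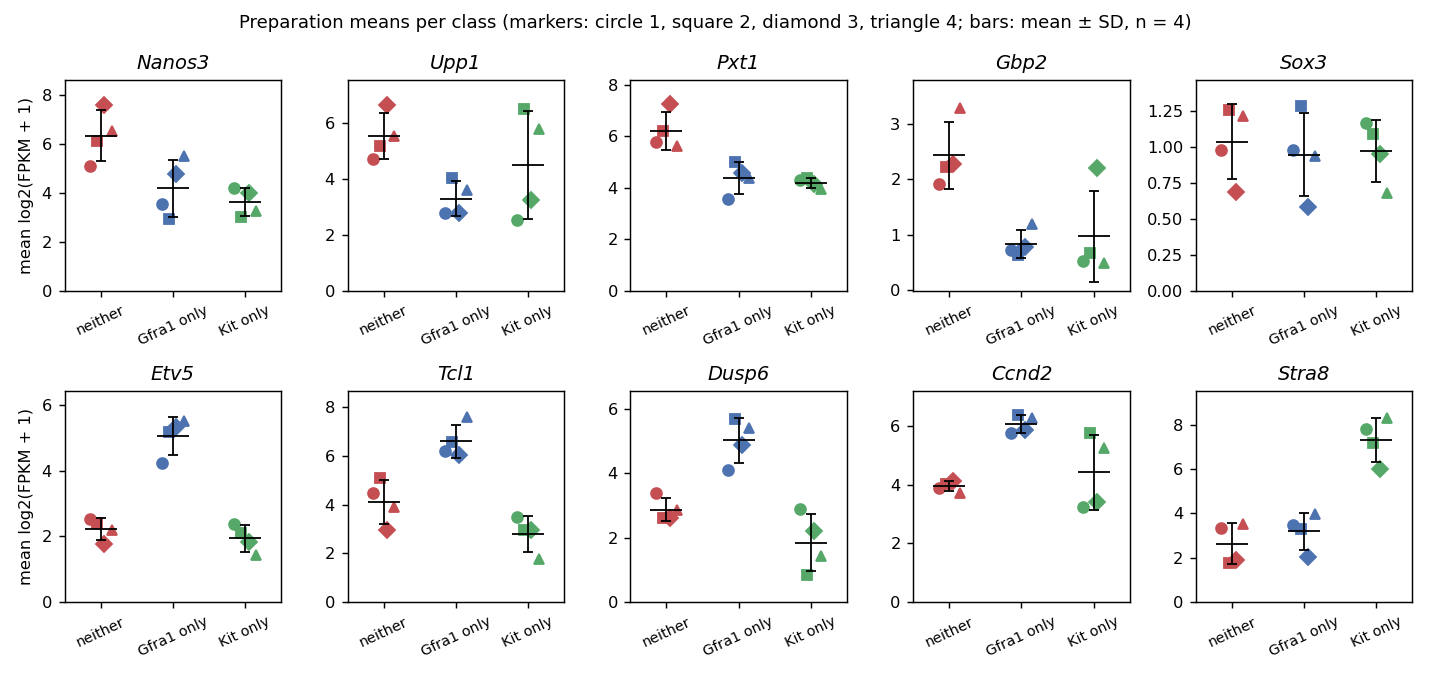
Mean log2(FPKM + 1) (y axis) of 10 genes in each preparation (symbols) for cells with neither gene, Gfra1 only and Kit only (x axis), with the mean and SD over 4 preparations in black. Nanos3, Upp1, Pxt1 and Gbp2 are higher in the neither cells than in Gfra1-only cells of the same preparation, Etv5, Tcl1, Dusp6 and Ccnd2 are lower, Sox3 overlaps in all classes, and Stra8 stands apart in Kit-only cells, from 6.02 to 8.32.

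The progenitor list as a whole did not move one way. Of its 22 tested members, 2 were higher than in Gfra1-only cells, Nanos3 and Upp1, and 1 was lower, the LIM homeobox gene Lhx2 (-0.93, limma adjusted p = 0.0416). Over all genes 0.0769% were higher and 0.528% lower. The list's median difference was 0.177 beside -0.0901 over all genes. Nanos3 is also on the list of core undifferentiated factors, so it is not particular to the progenitor list. Of the 20 tested genes of that core list 1 was higher, Nanos3, and 0 lower, with a median difference of -0.113. Sox3, a transcription factor of progenitors, averaged 0.98, 1.26, 0.69 and 1.22 in the class and 0.98, 1.29, 0.58 and 0.94 in Gfra1-only cells. The groups overlapped and differed by 0.08 (SE 0.22, limma adjusted p = 0.931), with Sox3 detected in 35.5% and 30.5% of cells. Neurog3, the bHLH factor used to label progenitors, was detected in 11.8% of the class and 9.16% of Gfra1-only cells and differed by 0.17 (SE 0.18, limma adjusted p = 0.768). A p above the threshold does not show that these genes are alike in the classes.

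Rarg, the retinoic acid receptor of progenitors, averaged 2.36, 1.58, 1.15 and 2.00 in the class and 1.15, 0.83, 0.69 and 0.64 in Gfra1-only cells. The class was higher in 4 of 4 preparations, at an adjusted p above the threshold (0.95, SE 0.24, limma adjusted p = 0.0703). It was detected in 59.2% of the class, 32.1% of Gfra1-only and 60% of Kit-only cells. Lin28a, an RNA-binding protein that blocks let-7 maturation, differed by 1.31 in the same 4 of 4 direction (SE 0.35, limma adjusted p = 0.0909). Both passed in 2 of 19 alternatives.

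Progenitor and stem cell genes were also counted cell by cell. Of the 76 cells, 51 had both Upp1 and Nanos3 at 1 FPKM (67.1%, against 42.7% of Gfra1-only and 46% of Kit-only cells). At least 1 of Upp1, Nanos3, Sox3 and Neurog3 was present in 70 (92.1%, against 83.2% and 92%). Ret or Etv5 was still present in 58 (76.3%, against 93.9% and 54%). Cells with Upp1 or Nanos3 but no Etv5 numbered 34 of 76 (44.7%), 7 of 131 (5.34%) and 25 of 50 (50%). By preparation that share ran from 36.4 to 69.2% in the class and from 0 to 12% in Gfra1-only cells. These shares carry no test, since a gene listed at 0 in a cell may have been missed. Upp1, Nanos3 and Etv5 were also called between these same cells, so shares built from them are not independent of those calls. Etv5 alone was present in 53.9% of the class, 93.1% of Gfra1-only and 38% of Kit-only cells.

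Genes lower than in Gfra1-only cells included members of the stem cell associated and the GDNF, FGF and ERK responsive lists. Of 20 tested stem cell associated genes 9 were lower and 0 higher, with a median difference of -0.977. Of 17 tested GDNF, FGF and ERK responsive genes 6 were lower and 0 higher, with a median of -0.813, and Etv5, Bcl6b and Egr2 are on both lists. Over all 10409 genes 0.528% were lower and 0.0769% higher, with a median difference of -0.0901. Both lists were chosen with results from these cells known and are not independent evidence of direction. Eomes and T, among the 9 lower stem cell genes, reached 1 FPKM in 84 and 52 cells, 56 and 36 of them Gfra1-only. Without the Gfra1-only cells both genes would miss the filter of 30 cells. With no filter on low values Eomes passed and T did not. Compared with Kit-only cells, 0 of the 20 stem cell genes passed by limma (5 at an unadjusted p under 0.05), beside 0.845% of all genes. The median difference of these 20 genes was 0.240 beside -0.226 over all genes.

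Etv5, an ETS transcription factor induced by GDNF and FGF and needed for stem cell renewal (chr16:22381309-22439719), had the largest decrease. It averaged 2.53, 2.40, 1.77 and 2.2 in the class and 4.24, 5.17, 5.34 and 5.52 in Gfra1-only cells. The groups were far apart, with a difference of -2.77 (SE 0.34, limma adjusted p = 0.000185). Kit-only cells averaged 2.38, 2.11, 1.82 and 1.44 and overlapped with the class (0.44, SE 0.43, limma adjusted p = 0.652). Median Etv5 was 2.21 FPKM in the class, 45.8 in Gfra1-only and 0.112 in Kit-only cells. The call of Etv5 held in 16 of 19 alternatives, including each preparation left out, and was lost with unweighted means, after averaging within quartiles and with the log2 of mean FPKM.

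Dusp6, a phosphatase that shuts off ERK and is itself an ERK target (chr10:99263231-99267489), averaged 3.39, 2.62, 2.61 and 2.86 in the class and 4.11, 5.69, 4.89 and 5.39 in Gfra1-only cells. No preparations overlapped, and the difference was -2.18 (SE 0.38, limma adjusted p = 0.00603). Ccnd2, a D-type cyclin that drives entry into S phase, stood within 3.72 to 4.13 in the class and 5.75 to 6.37 in Gfra1-only cells. It differed by -2.11 (SE 0.30, limma adjusted p = 0.00095), and its exons overlap 9330179D12Rik and Gm43126 on the opposite strand. Tcl1, which enhances AKT kinase activity, averaged 4.49, 5.09, 2.95 and 3.9 in the class and 6.21, 6.56, 6.05 and 7.59 in Gfra1-only cells. These did not overlap, with a difference of -2.30 (SE 0.48, limma adjusted p = 0.0214) that came to -0.89 after averaging within quartiles. Dusp6, Ccnd2 and Tcl1 did not pass without preparation 2.

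Others of the 10 largest decreases were the homeobox gene Hhex (-2.06), the phosphatase gene Ptpn13 (-2.03), the basement membrane gene Nid1 (-1.90), the guanine exchange factor gene Rasgrp2 (-1.83), Pqlc1 (-1.80) and the Ras-like gene Rasl11a (-1.77), with limma adjusted p from 0.00095 to 0.0119. On the GDNF, FGF and ERK list the receptor feedback inhibitor Spry4 (-1.5) and the transcription factors Bcl6b (-1.52) and Egr2 (-1.74) were lower. On the stem cell list Eomes, a T-box factor of a stem cell subset, was detected in 14.5% of the class and 42.7% of Gfra1-only cells (-1.24, limma adjusted p = 0.00956). The neurofilament gene Nefm (-1.76), the forkhead gene Foxc2 (-1.20) and the T-box gene T (-1.18) were also lower. Each of these genes was lower in 4 of 4 preparations. Ptpn13, Nid1, Rasgrp2 and Eomes share exon bases with predicted genes of the other strand, and Nefm with Nefl. Every gene named in this paragraph lost its call without preparation 2 and after averaging within quartiles.

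Ret, the signalling partner of GFRA1, was lower in 3 of 4 preparations but did not pass the test. It averaged 1.92, 1.98, 1.83 and 2.33 in the class and 1.73, 3.47, 2.75 and 3.10 in Gfra1-only cells. The groups overlapped, with a difference of -0.76 (SE 0.30, limma adjusted p = 0.285). In Kit-only cells Ret was at 0.42, 0.86, 1.51 and 0.95, below every preparation of the class (difference 1.1, SE 0.38, limma adjusted p = 0.149). Nanos2, a translational repressor that holds stem cells undifferentiated, was detected in 5.26% of the class and 18.3% of Gfra1-only cells (-0.63, limma adjusted p = 0.128). Zbtb16, the PLZF factor (-0.37), and Sall4 (-0.57) also did not pass (limma adjusted p = 0.699 and 0.226). Cd9, the surface protein used in the sort, differed by -0.68 (limma adjusted p = 0.229), lower in 4 of 4 preparations.

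Against Kit-only cells the class had far less Stra8, Cited1 and Crabp1 and more Enc1, Gyltl1b and Nanos3. In all, 88 genes passed (limma adjusted p under 0.05, 0.845% of 10409), 17 higher in the class (0.163%) and 71 lower (0.682%), beside a median difference over all genes of -0.226. The Kit-only group held 13, 6, 11 and 20 cells, and the class had fewer detected genes in every preparation. With detected genes as a covariate 2 genes passed, Stra8 and Cited1. Standardised over tertiles of detected genes 27 passed, 44.4% of them lower against 80.7%, and after centring 67 passed, 23.9% of them lower, with a median over all genes of 0.071. Without preparations 1, 2, 3 and 4 the counts were 25, 17, 26 and 10. The 88 genes kept their sign in each alternative in which they were tested. These comparisons share the 76 cells with those against Gfra1-only cells and are not independent of them.

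Stra8, the retinoic acid target that marks commitment to differentiation and meiosis (chr6:34920163-34939344), averaged 3.36, 1.76, 1.91 and 3.51 in the class. It averaged 7.81, 7.18, 6.02 and 8.32 in Kit-only cells, far above, and 3.46, 3.28, 2.02 and 3.98 in Gfra1-only cells, close to the class. The difference from Kit-only cells was -4.73 (SE 0.35, limma adjusted p = 1.57e-08), called in all 19 alternatives, and that from Gfra1-only cells -0.63 (SE 0.27, limma adjusted p = 0.352). Median Stra8 was 1.06 FPKM in the class, 3.15 in Gfra1-only and 376 in Kit-only cells, with 723 the highest in the class. Cited1, a transcriptional co-regulator, averaged 0.40, 1.17, 1.18 and 1.08 in the class and 4.57, 4.35, 3.66 and 5.97 in Kit-only cells (-3.87, SE 0.44, limma adjusted p = 1.75e-05). Crabp1, a retinoic acid binding protein, differed by -1.82 (SE 0.30, limma adjusted p = 0.00405). It stood at 5.95, 7.28, 5.99 and 7.06 in the class and 7.20, 8.62, 8.61 and 9.05 in Kit-only cells, where the lowest Kit-only preparation lay just below the highest of the class.

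Of 12 tested retinoic acid pathway genes 2 were lower than in Kit-only cells, Stra8 and Crabp1, and 0 were higher. Over all genes 0.682% were lower and 0.163% higher than in Kit-only cells. The list's median was -0.463 beside -0.226 over all genes. Against Gfra1-only cells 0 of the 12 passed by limma (4 at an unadjusted p under 0.05), where Rarg had the smallest adjusted p at 0.0703. Of 13 differentiating genes 2 were lower than in Kit-only cells, Stra8 and Crabp1. Further decreases were seen for the methionine salvage gene Adi1 (-2.41), M1ap (-2.28), the endoplasmic reticulum lipid raft gene Erlin1 (-2.22) and the actin severing gene Cfl2 (-2.12).

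Higher than in Kit-only cells, besides Nanos3, Pxt1, Gbp2 and Hspa1a, were several genes that did not pass against Gfra1-only cells. Enc1, an actin-binding kelch protein gene (chr13:97241105-97253034), averaged 7.77, 8.26, 7.70 and 7.99 in the class and 3.58, 8.10, 5.17 and 5.46 in Kit-only cells. The difference was 2.77 (SE 0.45, limma adjusted p = 0.00405), and the Kit-only cells of preparation 2 lay within the range of the class. The glycosyltransferase gene Gyltl1b averaged 4.77, 6.44, 5.84 and 6.45 in the class and 2.94 to 4.58 in Kit-only cells, without overlap (2.48, SE 0.37, limma adjusted p = 0.00108). Pla2g7, a lipase that breaks down platelet-activating factor (1.93), Rragd, a Rag GTPase of the mTORC1 pathway (1.92), and the membrane glycoprotein gene Emb (1.90) were also higher, as was the immediate early gene Egr1 (1.75, limma adjusted p = 0.0188). Rragd stood at 4.02 to 4.63 in the class, above all preparations of Gfra1-only and Kit-only cells, though not above the 4.80 reached in preparation 3 by cells with both genes, with an uncalled difference of 1.27 from Gfra1-only cells (limma adjusted p = 0.0749).

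Few cell cycle genes passed in either comparison, and few genes passed at all. Over all 10409 genes 0.605% passed against Gfra1-only and 0.845% against Kit-only cells, with median differences of -0.0901 and -0.226. At these shares 0 calls in a list of 20 genes says little about the list. Of 20 S phase genes 0 passed by limma against Gfra1-only cells (4 at an unadjusted p under 0.05, median -0.396), and 2 were lower than in Kit-only cells, the replication helicase subunit Mcm4 (-1.57) and the histone mRNA binding protein gene Slbp (-1.24), with a median of -0.738. Of 21 genes of G2 and mitosis 0 passed by limma in either comparison (2 and 7 at an unadjusted p under 0.05), with medians of 0.167 and -0.722. Mki67, a marker of cycling cells, was detected in 55.3% of the class, 52.7% of Gfra1-only and 80% of Kit-only cells, and differed by 0.11 (limma adjusted p = 0.944) and -0.89 (limma adjusted p = 0.403).

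Other lists gave few calls, beside shares over all genes of 0.605% against Gfra1-only and 0.845% against Kit-only cells. Gtsf1, a piRNA pathway gene, was the 1 of 16 such genes lower than in Gfra1-only cells (-0.62, limma adjusted p = 0.0462), a call lost in 16 of 19 alternatives. Of 18 meiotic prophase genes, 15 apoptosis genes, 32 ribosomal protein genes, 12 niche growth factor receptors, 12 surface proteins and 8 BMP and TGF-beta targets, 0 passed by limma in either comparison, with medians from -0.293 to 0.0863 against Gfra1-only cells. At an unadjusted p under 0.05 the counts in these lists were, in that order, 1, 2, 3, 3, 4 and 0 against Gfra1-only and 7, 3, 2, 2, 3 and 2 against Kit-only cells. The complex I subunit gene Ndufa1 (-1.79) was the 1 of 27 nuclear oxidative phosphorylation genes that was lower than in Kit-only cells. Among 17 immediate early and stress genes Hspa1a was higher and Egr2 lower than in Gfra1-only cells. The 20 housekeeping genes had 0 calls by limma in both comparisons (0 and 1 at an unadjusted p under 0.05) and medians of -0.0505 and -0.0784.

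Among the 76 cells themselves, Upp1 and Nanos3 averaged higher in dim cells and Etv5 and Eomes in bright ones, but no slope over quartiles passed the test. This fit was added after the data were seen. Preparations 1 to 4 gave 4, 0, 1 and 5 cells of the class in Q1 and 7, 9, 8 and 1 in Q4. Averages of pooled cells therefore mix the preparations unevenly, while the slopes were fitted within preparations. In cells pooled over preparations Upp1 averaged 3.27 in the 10 cells of Q1, 2.77 in the 15 of Q2, 6.32 in the 26 of Q3 and 6.68 in the 25 of Q4. Its slope per step towards brighter was -1.54 (SE 0.35, limma adjusted p = 0.189). Nanos3 averaged 4.40, 4.90, 6.90 and 6.69 from Q1 to Q4 (slope -0.81, limma adjusted p = 0.543), and Etv5 3.16, 3.68, 1.94 and 1.49 (slope 0.81, limma adjusted p = 0.502). Eomes stood at 2.42 and 1.32 in Q1 and Q2 and at 0.04 and 0.00 in Q3 and Q4 (slope 0.82, limma adjusted p = 0.502).

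No gene passed for a slope within the class, with 728 of 10409 genes at an unadjusted p under 0.05 (6.99%) and a smallest limma adjusted p of 0.0959. Within Gfra1-only cells 4 genes passed (0.0384%), all rising with brightness, namely Arhgef25, Cd109, Rab4a and Tcl1, which were named after their values were seen. The difference between the slopes passed for 0 genes by limma, with 626 at an unadjusted p under 0.05 and a smallest adjusted p of 0.233. The largest gap among the genes of the spermatogonial panel was that of Upp1 (-1.54 in the class, -0.52 in Gfra1-only cells, difference -1.02, SE 0.44, limma adjusted p = 0.795).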

How the data were processed

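Single spermatogonia were captured on Fluidigm C1 chips and made into cDNA with a SMARTer kit, per the labels' protocols. TopHat, Cufflinks, FastQC and Picard with builds mm10 and GRCm38 are named in the submitters' processing notes, and versions are not given in the sources used here. The deposited table, taken as FPKM because of Cufflinks, holds 23354 gene names, of which 23213 matched a current or older symbol, and 25 of the 141 others had been turned into dates. Its header names no unit. Mitochondrial genes and Id4 itself are not analysed here.

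The number in the sample titles was taken as the preparation. Means over cells of log2(FPKM + 1) per preparation and class (16 means, classes neither, Gfra1-only, Kit-only and both) were fitted with limma 3.58.1 in R 4.3.3, weighted by cells, with preparation as a block and variances moderated with trend and robust settings. Genes at 1 FPKM or more in at least 30 cells, counted over all classes together, entered. A gene could therefore enter through the cells of 1 class. P-values were Benjamini-Hochberg adjusted over the genes tested with a threshold of 0.05. Fold changes on this scale understate the change of low genes. The pairing rests on classes of one preparation sharing mice and chip. Over all classes, deviations from class means correlated across genes at -0.00475 to 0.401 within a preparation (median 0.1) and at -0.243 to 0.136 between preparations (median -0.0426). For neither with Gfra1-only means of one preparation the range was 0.0941 to 0.401. P-values of the limma and sign-flip tests measure the spread between preparations, while the share over quartiles was tested by exact permutation of quartile labels within preparations (331776 relabelings).

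Relative depth came from steps in low values (72.7% of 61269 values lay within 5% of 1 or 2 steps), and raw counts were not used here. One member of the retinoic acid list is not reported here and was left out of its counts. Members, lists and comparisons were chosen with earlier results of these data known. Named genes were a panel of spermatogonial markers, the 10 largest one-sign calls per direction against Gfra1-only and 5 against Kit-only cells, and up to 4 members per list, without predicted or clone names. Promoters and gene bounds are from RefSeq (GRCm38.p6) and GENCODE (GRCm38).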

Additional observations from a re-analysis of the deposited data

Results flagged for a closer look

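In 3 of 77 sets of 4 preparation means 1 preparation lay far from the others, where chance alone would pick about 1 in 20 sets. Mki67 averaged 1.20 in the neither cells of preparation 3, against 2.55 to 2.82 in the other preparations. Lin28a averaged 1.87 in the Gfra1-only cells of preparation 1, against 3.62 to 3.78 in the others. Hspa1a averaged 0.07 in the Gfra1-only cells of preparation 1, against 0.30 to 0.34 in the others.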

How the results depend on the processing

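The 63 calls against Gfra1-only cells became 35 without a filter on low values, 0 with unweighted means, 30 with only the 2 classes in the fit, 22 with detected genes as a covariate, 1 after averaging within quartiles, 98 and 40 with class thresholds of 5 and 0 FPKM, 4 with the log2 of mean FPKM, and 1 to 73 with a preparation left out. The 88 calls against Kit-only cells became 7, 36, 54 and 2 under the first 4 of these settings, 27 over tertiles of detected genes, 30 at 0 FPKM, 11 with the log2 of mean FPKM, and 10 to 26 with a preparation left out. With no replicate block, that is without pairing by preparation, the counts were 32 and 6. The slope of the class's share over quartiles was 6.95 points over tertiles of detected genes and 6.05 to 11.8 with a preparation left out. The added slope fit gave 2 calls without trend and robust settings and 0 to 1 with a preparation left out. The difference in detected genes stayed between -269.1 and -83.8, and no call of a named gene reversed. The cause of these changes was not tested. Each preparation held 13 to 26 cells of the class, which limits the precision of its means.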
